A study of Mus musculus with 29 samples.

Results

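The CC chemokine genes Ccl2, Ccl3, Ccl4, Ccl5, Ccl7, Ccl8, Ccl11, Ccl20, Ccl25 and Ccl28 were followed in mouse colon across dextran sodium sulphate (DSS) colitis. Each gene was read from a probe set annotated to that symbol alone, and where a gene had several such probe sets the one with the highest mean over all arrays was used. This gave 10 genes of 19938 that had a probe set with a single symbol, on an array of 35511 probe sets. Whole-transcript Affymetrix Mouse Gene 1.0 ST arrays were hybridised with total RNA from colon, 1 array per mouse, and the values are log2 expression. All 29 mice were C57BL6J females, labelled 6 weeks old, which was their age when the study began, and they were age-matched at sacrifice. DSS damages the colon epithelium and was given in the drinking water. The 5 control mice drank plain water, and the 4 acute mice were taken directly at the end of 7 days of DSS. In the chronic groups a cycle joined 7 days of DSS to 2 weeks of plain water, and 5 mice each were taken after 1, 2 and 3 cycles. A further 5 mice, called recovery here, had 2 cycles and then 3 more weeks of plain water. The DSS concentration was higher from the second cycle on, so the number of cycles and the dose cannot be told apart. The piece frozen came from the most infiltrated part of the distal colon, so a level describes that piece and not the whole organ. Mice are named below by the letter and number of their array label (A1, B3 and so on).

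Chemokines are small secreted proteins that bind receptors on leukocytes and direct their movement into and within tissues. The CC family takes its name from adjacent cysteines near the amino end of the protein. Inflammatory members such as Ccl2, Ccl3 and Ccl5 are made by many cell types when tissue is injured, whereas Ccl25 and Ccl28 are made by mucosal epithelium in the absence of injury and attract lymphocytes that carry Ccr9 or Ccr10. Ccl20 lies between these classes, since the epithelium over lymphoid follicles makes it and its receptor Ccr6 is carried by B cells and dendritic cells.

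Promoters were available for 5 of the 10 genes in a RefSeq table of build GRCm38.p6. The 3 printed here, each the 250 bases up to the transcription start, belong to genes with different patterns over the groups: Ccl8, which rose in every DSS group, Ccl3, which rose in the acute group and after 2 and 3 cycles, and Ccl20, which passed the call rule in none. Capitals mark matches to motifs that were searched on both strands, and positions count back from the start.
Ccl8 (GRCm38.p6, chr11:82114935-82115184, plus strand): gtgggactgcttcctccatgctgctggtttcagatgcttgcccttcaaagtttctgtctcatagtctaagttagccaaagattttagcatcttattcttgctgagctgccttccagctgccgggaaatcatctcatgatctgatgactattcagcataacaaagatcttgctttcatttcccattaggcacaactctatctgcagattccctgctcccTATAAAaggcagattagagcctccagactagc
Ccl3 (GRCm38.p6, chr11:83649379-83649628, minus strand): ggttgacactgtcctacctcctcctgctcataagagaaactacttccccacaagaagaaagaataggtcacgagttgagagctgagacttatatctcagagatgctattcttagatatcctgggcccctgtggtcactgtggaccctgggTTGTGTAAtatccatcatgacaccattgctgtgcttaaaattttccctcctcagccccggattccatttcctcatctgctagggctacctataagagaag
Ccl20 (GRCm38.p6, chr1:83116516-83116765, plus strand): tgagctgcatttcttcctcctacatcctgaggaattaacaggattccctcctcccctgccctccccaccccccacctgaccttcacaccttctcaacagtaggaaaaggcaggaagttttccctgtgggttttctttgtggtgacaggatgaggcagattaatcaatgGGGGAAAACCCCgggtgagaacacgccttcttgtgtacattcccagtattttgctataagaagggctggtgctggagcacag

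The Ccl20 promoter held GGGGAAAACCCC, which contains 3 overlapping matches to the kB-type motif GGG, any 5 bases, then CC, the first starting at position -82. That loose motif was also present in 45.8% of the 32851 promoters of the same table. Ccl3 carried 1 match to the C/EBP-type motif TTNNGNAA at position -100, found in 36.8% of all promoters, and Ccl8 carried a TATAAA box at position -32, found in 12.4%. The other motifs searched, TGANTCA for AP-1, TTCNNNGAA for STAT factors and GAAA, any 2 bases, then GAAA for interferon-regulated genes, matched in 6.75%, 7.02% and 2.98% of all promoters and in none of these 3. A match only describes the letters of this window.

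Values over all probe sets ran from 1.93 to 13.97 and array medians from 6.02 to 6.14. Markers of colon epithelium were high in every group, with a mean log2 level of 8 markers between 11.31 and 11.95 on all arrays, as the tissue label gives. The arrays fell into 2 sets by the signal of a single probe set, which the study calls ATP synthase F0 subunit 6: it was at most 8.14 on 14 arrays and at least 11.09 on 15. All control and 1 cycle arrays, acute B2 and B3 and 2 cycles D4 and D5 were in the low set, and all 3 cycles and recovery arrays, acute B4 and C3 and 2 cycles E2, E3 and E4 were in the high set. What separates the sets is not stated, and against control it cannot be told apart from 3 cycles or from recovery. Values with the set as a covariate, or within 1 set, are given beside each call they change. Markers of squamous epithelium, which lines skin and the anal canal but not the colon, stood apart on 5 arrays: the mean of 7 genes was 8.21 in 3 cycles mouse G3 and 10.45, 10.06, 8.32 and 10.11 in recovery mice M1, M3, N2 and N3, against 5.25 to 5.43 in controls and 5.16 in recovery mouse M5. Of these 7 genes 6 were called in recovery, with a list median log2 of 4.05, and none in any other group against control. With those 5 arrays left out, a choice made after the marker values were seen, recovery rests on M5, which is then assumed to vary like the other groups. Probe sets differ in their response, so a level was compared between mice and never between genes. A gene was called when its limma p-value was under 0.05 after Benjamini-Hochberg adjustment across the whole array of 35511 probe sets and its fold change was above 2. These p-values rest on the spread between mice within groups, taken as 1 value per probe set shared by all 6 groups. For Ccl2 the SD was 1.67 in acute mice and 0.12 in controls. In such a case the shared value is too small for the acute group and too large for the others.

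Of the 5 comparisons with control, the acute one had the most members called. Ccl2, Ccl7, Ccl8, Ccl3 and Ccl5 rose over control, 5 of the 10 genes, where 1.38% of all probe sets were called higher, and no member fell, where 1.4% of all probe sets were called lower. Ccl11, Ccl4, Ccl20, Ccl25 and Ccl28 were not called. The median log2 fold change of the 10 genes was 1.20, against 0.04 over all probe sets. The study itself picked Ccl2, Ccl3, Ccl5 and Ccl8 as changed from the same series of mice, so their direction is not independent evidence. It describes arrays of 5 animals in each group, whereas the acute group held 4 here.

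**Figure D1:**
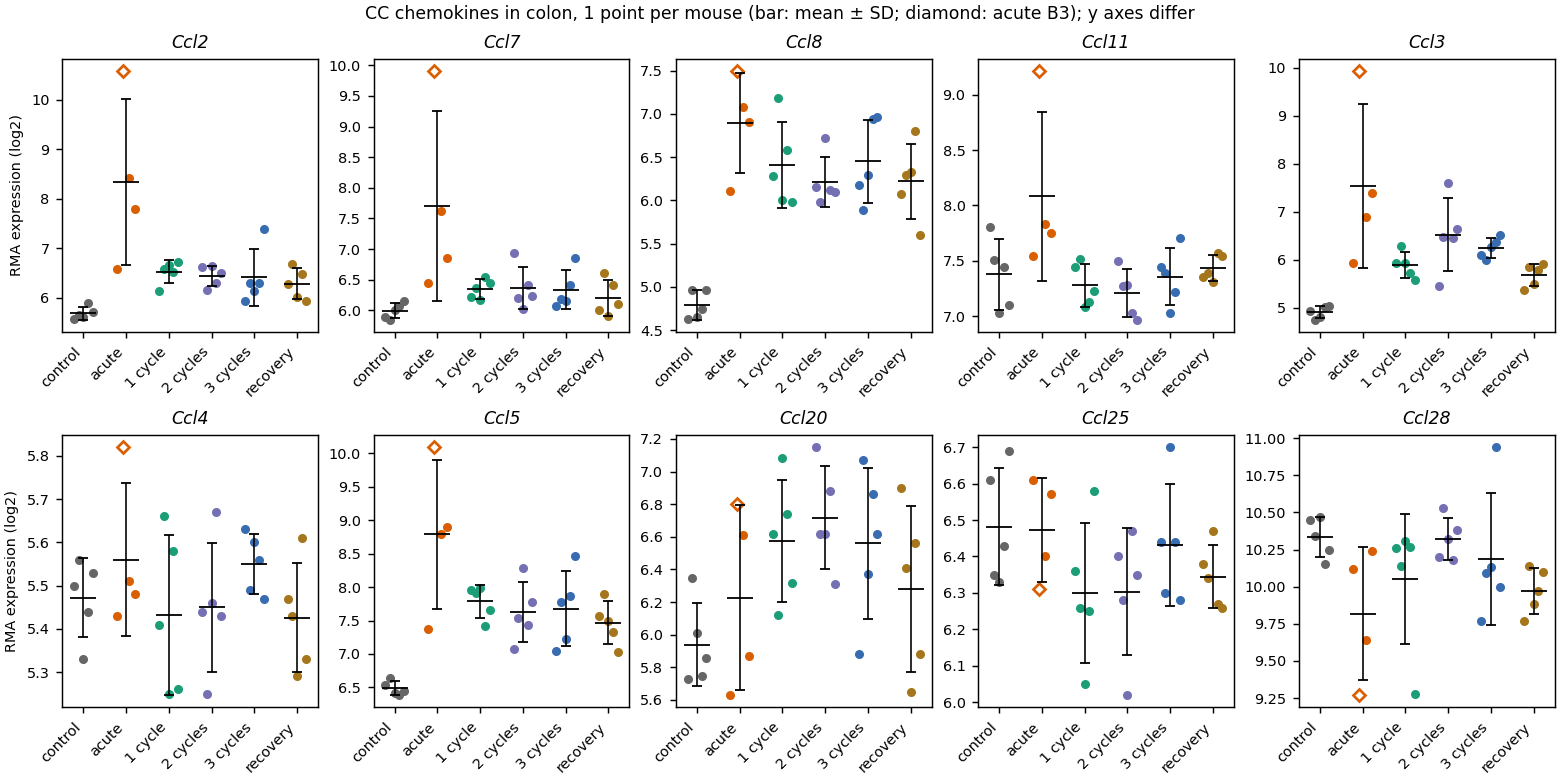
Log2 expression of the 10 CC chemokine genes in each of 29 mice, by group, with the group mean and SD as bars, and with acute mouse B3 as an open diamond. Ccl2, Ccl8, Ccl3 and Ccl5 lie above every control mouse in all 5 DSS groups, and B3 is the highest of all 29 mice for 7 of the 10 genes.

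Ccl2 and Ccl7 encode the monocyte chemoattractants that act through Ccr2 and draw monocytes out of bone marrow and into tissue. Ccl2 was at 5.57, 5.65, 5.60, 5.89 and 5.70 in control mice A1, A2, A5, L1 and L2, and at 6.58, 10.57, 8.41 and 7.79 in acute mice B2, B3, B4 and C3. The acute mice were all above the controls but spread widely, with a mean of 8.34 ± 1.67 (SD, n = 4) against 5.68 ± 0.12 (SD, n = 5). This was a 6.31-fold rise (log2 2.66, SE 0.43, limma adjusted p = 4.44e-05). After 1 cycle Ccl2 was at 6.14, 6.58, 6.66, 6.51 and 6.72 in J1, J5, K1, K2 and K3, after 2 cycles at 6.62, 6.16, 6.63, 6.29 and 6.49 in D4, D5, E2, E3 and E4, and after 3 cycles at 5.93, 6.29, 6.13, 6.29 and 7.39 in F1, F3, F5, G2 and G3. Recovery mice M1, M3, M5, N2 and N3 had 6.27, 6.68, 6.01, 6.48 and 5.94. Every one of these 20 mice was above the highest control, yet no chronic or recovery contrast passed the test: log2 differences from control were 0.84, 0.76, 0.72 and 0.60 after 1, 2 and 3 cycles and recovery, with adjusted p from 0.217 to 0.358. The 95% interval after 1 cycle ran from 0.01 to 1.67, so these data do not show equality with control either. This interval and these adjusted p use the shared spread, which the acute SD of 1.67 widens. The SD after 1 cycle was 0.23. Each of these differences was also under the 2-fold limit.

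Ccl7 followed the acute part of that pattern at a smaller size. Its controls A1 to L2 read 5.89, 5.85, 6.00, 6.07 and 6.16, and acute B2, B3, B4 and C3 read 6.44, 9.90, 7.62 and 6.85, again with no overlap. The rise was 3.26-fold (log2 1.71, SE 0.39, adjusted p = 0.0017). It rested in part on B3: without that mouse the log2 difference was 0.97 (SE 0.22, adjusted p = 0.00175), under the 2-fold limit. The call was also lost when only the acute and control mice were fitted (log2 1.71, SE 0.57, adjusted p = 0.0737). In the chronic and recovery mice Ccl7 lay between 5.90 and 6.93, and of these groups only the 1 cycle mice were all above the controls, at 6.22, 6.36, 6.17, 6.55 and 6.44. The log2 differences from control were 0.35, 0.37, 0.34 and 0.21, with adjusted p of 0.547 or more.

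Ccl8, another monocyte chemotactic protein, which in mice acts on Ccr8 of T cells, was the only member called against control in all 5 DSS groups. Control mice had 4.63, 4.97, 4.65, 4.74 and 4.97. Acute mice had 6.11, 7.49, 7.08 and 6.91, and the 1 cycle mice 6.28, 7.18, 6.01, 6.58 and 5.98. The 2 cycles mice had 6.15, 5.98, 6.72, 6.12 and 6.10. So far no DSS mouse came within 1 log2 unit of the highest control. The 3 cycles mice, at 6.18, 5.89, 6.29, 6.94 and 6.96, and the recovery mice, at 6.08, 6.29, 6.33, 6.80 and 5.60, were also all above control. Against control Ccl8 rose 4.31-fold in acute mice (log2 2.11, SE 0.27, adjusted p = 2.63e-06), 3.07-fold after 1 cycle (adjusted p = 0.000314), 2.68-fold after 2 cycles (adjusted p = 0.001), 3.17-fold after 3 cycles (adjusted p = 0.000125) and 2.69-fold in recovery (adjusted p = 0.000756). The calls of Ccl8 after 2 and 3 cycles and in recovery depend on how the 2 sets of arrays are treated. With the set as a covariate the log2 rise after 3 cycles was 1.44 (SE 0.37, adjusted p = 0.0677) and in recovery 1.20 (SE 0.37, adjusted p = 0.156), and within the low set, with D4 and D5 only, that after 2 cycles was 1.27 (SE 0.34, adjusted p = 0.101). With the squamous marker arrays left out Ccl8 was still called after 3 cycles (log2 1.54, adjusted p = 0.00126), and M5 alone gave 1.54 with no call (SE 0.42, adjusted p = 0.232).

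Ccl3 and Ccl5 encode inflammatory chemokines that both bind Ccr1; Ccl3 comes largely from activated macrophages and neutrophils and Ccl5 largely from T and NK cells. Ccl3 was at 4.93, 4.76, 4.82, 5.01 and 5.05 in controls and at 5.93, 9.92, 6.89 and 7.40 in acute mice B2, B3, B4 and C3. The groups did not overlap, and the rise was 6.15-fold (log2 2.62, SE 0.45, adjusted p = 0.000103). After 1 cycle Ccl3 was at 5.93, 6.29, 5.94, 5.72 and 5.58 in J1, J5, K1, K2 and K3, a log2 difference of 0.98 that did not pass (adjusted p = 0.19) but was called with array weights (1.05, adjusted p = 0.0227). After 2 cycles D4, D5, E2, E3 and E4 had 5.45, 6.47, 7.60, 6.45 and 6.65, and after 3 cycles F1, F3, F5, G2 and G3 had 6.10, 5.99, 6.27, 6.37 and 6.51. E2 was the highest chronic mouse and D4 the lowest after 2 cycles. Ccl3 was called after 2 cycles (3.05-fold, log2 1.61, SE 0.43, adjusted p = 0.0226) and after 3 cycles (2.52-fold, log2 1.34, SE 0.43, adjusted p = 0.0299). Neither chronic call was firm: the first was lost without A5 or without E2, the second without any of A1, A2, A5, F5, G2 and G3, and both with the array set as a covariate. The covariate left the log2 differences at 1.52 and 1.18, with larger SE of 0.51 and 0.63 (adjusted p = 0.157 and 0.45), and within the low set that after 2 cycles was 1.05 (SE 0.69, adjusted p = 0.607). Recovery mice, at 5.38, 5.85, 5.50, 5.78 and 5.91, were all above control with a log2 difference of 0.77 (adjusted p = 0.248).

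Ccl5 controls had 6.54, 6.64, 6.42, 6.39 and 6.45, the narrowest spread of the genes that were called. Acute mice had 7.37, 10.09, 8.79 and 8.89, all above control, and the rise was 4.91-fold (log2 2.30, SE 0.33, adjusted p = 1.37e-05). After 1 cycle Ccl5 was at 7.96, 7.91, 7.98, 7.42 and 7.66, which is above acute B2 in every mouse. The 2 cycles mice had 7.08, 7.54, 8.29, 7.44 and 7.77, the 3 cycles mice 7.05, 7.78, 7.22, 7.86 and 8.46, and the recovery mice 7.57, 7.90, 7.50, 7.33 and 7.03. No DSS mouse reached down to the highest control. The gene rose 2.45-fold after 1 cycle (adjusted p = 0.0116), 2.19-fold after 2 cycles (adjusted p = 0.0316) and 2.27-fold after 3 cycles (adjusted p = 0.0109), and in recovery it passed the adjusted p but not the fold limit (1.97-fold, adjusted p = 0.0413). The call after 2 cycles was lost without any of A1, A5, L1, L2, E2 and E4, that after 3 cycles without G3, and recovery passed both limits without N3. With the array set as a covariate the log2 rise was 0.93 after 2 cycles (adjusted p = 0.279) and 0.85 after 3 cycles (adjusted p = 0.458), and within the low set it was 0.82 after 2 cycles (adjusted p = 0.526).

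Ccl4, whose gene neighbours Ccl3, did not pass in any comparison. Its values lay between 5.25 and 5.82 over all 29 mice, with controls at 5.50, 5.56, 5.33, 5.44 and 5.53 and acute mice at 5.43, 5.82, 5.51 and 5.48. B3 was again the highest mouse. The acute difference was 0.08 on the log2 scale with a 95% interval from -0.11 to 0.27 (adjusted p = 0.58), so for this probe set a rise of the size seen for Ccl3 lies outside the interval. Ccl4 was also the only member under 6 in every group mean. A probe set that responds little and an unchanged gene cannot be told apart here.

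Ccl11 encodes eotaxin, which attracts eosinophils through Ccr3. Control mice had 7.81, 7.51, 7.03, 7.44 and 7.10, and acute mice 7.54, 9.21, 7.83 and 7.75. Acute B3 stood apart, B2 lay inside the control range, and B4 and C3 were close to the highest control. The log2 difference of 0.70 (SE 0.22) passed the adjusted p (0.0221) but not the fold limit, and without B3 it was 0.33 (adjusted p = 0.145). In the 20 chronic and recovery mice Ccl11 lay between 6.97 and 7.71, with 3 mice below the lowest control and none above the highest, and no difference from control exceeded 0.17 on the log2 scale in size. Of the 6 eosinophil markers followed, none was called in the acute group.

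Ccl20 passed in no comparison, and its mean was highest after 2 cycles. Controls had 5.73, 6.35, 6.01, 5.75 and 5.86 and acute mice 5.63, 6.80, 6.61 and 5.87, which overlap (log2 difference 0.29, adjusted p = 0.488). After 1 cycle the values were 6.62, 6.12, 7.08, 6.74 and 6.32, after 2 cycles 7.15, 6.62, 6.62, 6.88 and 6.31, and after 3 cycles 5.88, 7.07, 6.37, 6.86 and 6.62. Most chronic mice were above the highest control, A2, but J5, K3, E4 and F1 were not. The log2 differences of 0.63, 0.77 and 0.62 did not pass, with adjusted p of 0.143, 0.0709 and 0.0867, although each 95% interval lay above 0. Recovery mice split, with 6.90, 6.41 and 6.56 in M1, M3 and N2 and 5.65 and 5.88 in M5 and N3 (log2 difference 0.34, adjusted p = 0.411).

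The mean of 5 B cell markers was ordered much like Ccl20 in the recovery mice, at 7.91, 7.29 and 7.87 in M1, M3 and N2 and 6.00 and 6.11 in M5 and N3, and among the 3 cycles mice F1 was lowest for both. Of these markers 4 were called after 1, 2 and 3 cycles and in recovery, and none in the acute group, where their mean was 5.12 to 6.41 against 5.11 to 6.08 in controls. Markers of follicle-associated epithelium and M cells had 1 of 5 called in the acute group, after 1 and after 2 cycles, and 2 of 5 after 3 cycles and in recovery. Their mean was 6.54 in the acute group and 6.49 after 1 cycle, but the 5 markers did not move together. Between these groups 1 was called higher in acute mice and 1 lower, where 0.197% and 0.498% of all probe sets were. The median log2 difference from control over this list was 0.09 in acute mice and 0.04 in recovery. After 1, 2 and 3 cycles it was 0.41, 0.55 and 0.15. The part of these cells in the Ccl20 values was not tested. In whole tissue fewer cells of a type and less RNA per cell cannot be told apart.

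Ccl28, which colon epithelium secretes and which attracts Ccr10-bearing plasma cells, passed in no comparison, but its mean lay below control in acute and in recovery mice. Controls had 10.45, 10.34, 10.47, 10.15 and 10.25, acute mice 10.12, 9.27, 9.64 and 10.24, and recovery mice 9.77, 10.14, 9.88, 9.97 and 10.10. All 5 recovery mice were below the lowest control, narrowly, M5 without squamous markers included, and acute B3 had the lowest value of all 29. Neither difference passed: it was -0.51 in acute mice (95% interval -0.94 to -0.09, adjusted p = 0.0753) and -0.36 in recovery (adjusted p = 0.234). Of 35511 probe sets, 6.42% had every recovery array below every control. The 1, 2 and 3 cycles mice ranged from 9.28 to 10.94 and overlapped the controls, with log2 differences of -0.28, -0.01 and -0.15. Over the same mice the mean of the 8 colon epithelium markers ran from 11.31 to 11.91 in acute and from 11.55 to 11.86 in recovery, against 11.80 to 11.90 in controls, and their part was not tested, nor was that of the squamous epithelium in M1, M3, N2 and N3.

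Ccl25, which guides Ccr9-bearing lymphocytes chiefly to the small intestine, passed in no comparison. Its chosen probe set lay between 6.02 and 6.70 over all mice, with 6.61, 6.35, 6.33, 6.43 and 6.69 in controls and 6.61, 6.31, 6.40 and 6.57 in acute mice, and no log2 difference from control exceeded 0.18 in size (adjusted p of 0.344 or more). This gene had a second probe set, dimmer at 5.73 to 6.33, with group means from 5.98 to 6.09. The chosen probe set is annotated to a non-coding transcript and the second to the protein-coding transcript, and neither separated the groups.

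**Figure D2:**
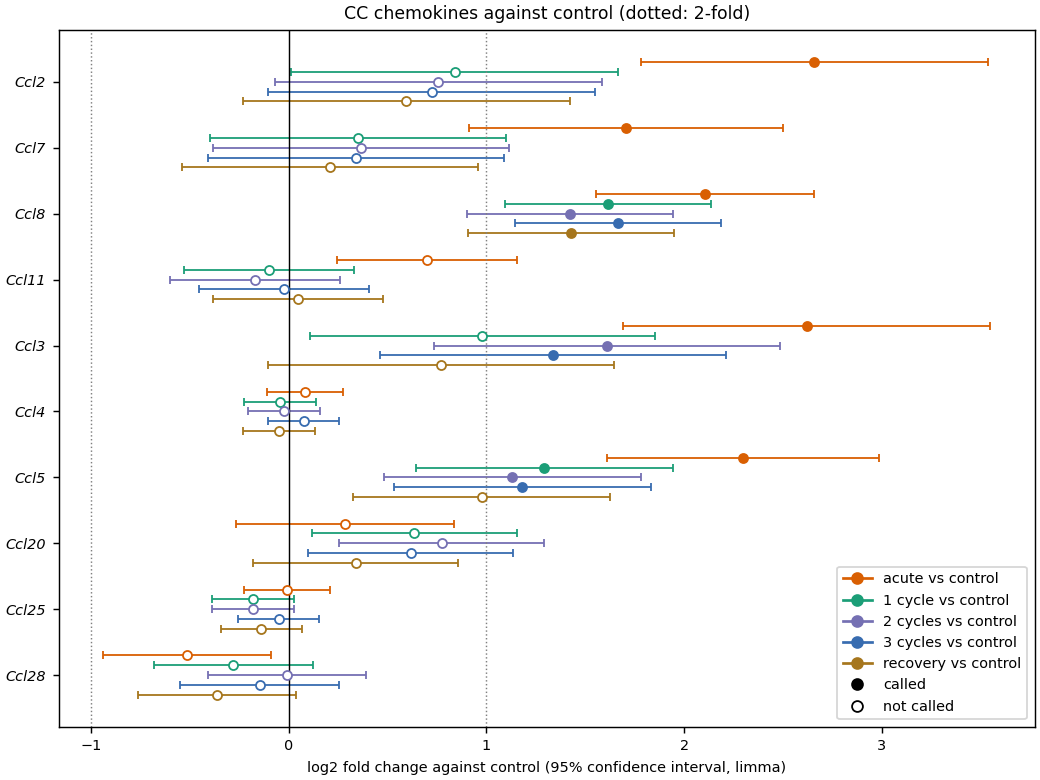
Log2 fold change of each CC chemokine gene against control, on the x axis, with its 95% confidence interval from limma, for acute, 1 cycle, 2 cycles, 3 cycles and recovery mice; filled points were called. Ccl8 is called in all 5 comparisons, Ccl5 in 4 and Ccl3 in 3, Ccl2 and Ccl7 are called in acute mice, and the intervals of Ccl4 and Ccl25 all include 0.

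The number of members called against control was thus 5 in acute mice, 2 after 1 cycle, where 0.87% of all probe sets were called higher, 3 after 2 cycles, where it was 0.907%, 3 after 3 cycles, where it was 1.02%, and 1 in recovery, where it was 1.08%. No member was called lower after 1, 2 or 3 cycles or in recovery, where 0.186%, 0.124%, 0.597% and 0.563% of all probe sets were. By the adjusted p alone, without the fold limit, 6 members passed in acute mice, 2, 3 and 3 after 1, 2 and 3 cycles and 2 in recovery, where 22.9%, 6.93%, 5.59%, 18.1% and 12.7% of all probe sets passed in either direction. Median log2 fold changes of the 10 genes were 0.49, 0.56, 0.48 and 0.27 after 1, 2 and 3 cycles and recovery, against -0.01, -0.01, 0.02 and 0.00 over all probe sets. Counted without a test, the members whose mice were all above every control were 5 in the acute group, 5 after 1 cycle and 4 each after 2 cycles, 3 cycles and recovery. The shares of all probe sets with that property were 8.86%, 4.89%, 4.7%, 8.15% and 6.44%. Ccl2, Ccl8, Ccl3 and Ccl5 had it in all 5 groups, and Ccl7 in the acute and 1 cycle groups.

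Acute colitis was set against the mean of the 3 chronic groups to ask which genes belonged to the acute phase. Ccl2 was 3.69-fold higher in acute mice (log2 1.88, SE 0.36, adjusted p = 0.000694), Ccl7 2.56-fold (log2 1.35, SE 0.32, adjusted p = 0.00546), Ccl3 2.48-fold (log2 1.31, SE 0.38, adjusted p = 0.0212) and Ccl5 2.14-fold (log2 1.09, SE 0.28, adjusted p = 0.00938). These 4 of 10 members compare with 0.282% of all probe sets called higher, and none was called lower, against 0.631%. Ccl11 passed the adjusted p alone (log2 0.80, adjusted p = 0.00439), which makes 5 members without the fold limit against 12.3% of all probe sets. For Ccl8 the difference was 0.54 with a 95% interval from 0.08 to 1.00 (adjusted p = 0.132). Ccl20 pointed the other way, at -0.39 (95% interval -0.85 to 0.07, adjusted p = 0.319).

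Of these 4 calls, 3 rested on 1 mouse. B3 was the highest acute mouse for 8 of the 10 members and B2 the lowest for 8. Without B3 the acute against chronic log2 difference was 1.14 for Ccl2 (SE 0.25, adjusted p = 0.00328), the only member still called. It was 0.62 for Ccl7 (adjusted p = 0.0309), 0.52 for Ccl3 (adjusted p = 0.243) and 0.66 for Ccl5 (adjusted p = 0.113), and for Ccl3 the call was also lost without C3 instead. Fitting only the acute and chronic groups also lost the call of Ccl3 (log2 1.31, adjusted p = 0.077), and array weights put Ccl5 just under the fold limit (log2 0.99, adjusted p = 0.0359). Against control, in contrast, Ccl2, Ccl8, Ccl3 and Ccl5 were still called without B3, at log2 1.91, 1.91, 1.83 and 1.86.

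**Figure D3:**
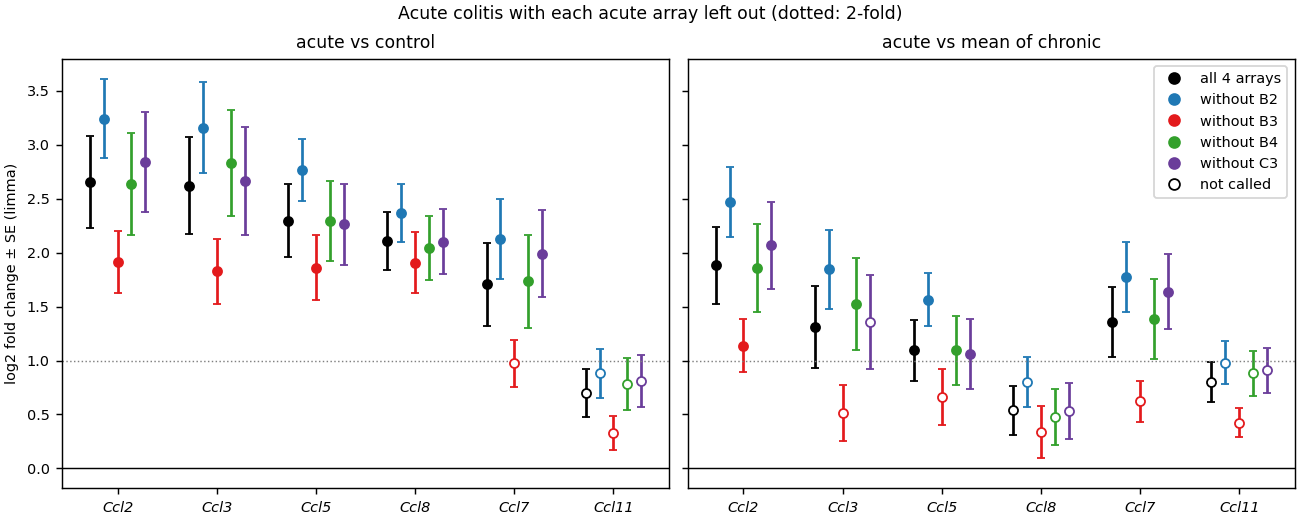
Log2 fold change with its SE for 6 CC chemokine genes, against control on the left and against the mean of the chronic groups on the right, with all 4 acute arrays (black) and with each left out in turn (colours); open points were not called. Leaving out B3 gives the lowest value for each gene in both panels, and on the right only Ccl2 stays called without it.

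Neutrophil and monocyte markers moved with the chemokines among the acute mice. Neutrophil markers, as the mean of 8 genes, were at 5.94, 9.10, 7.04 and 7.35 in B2, B3, B4 and C3, against 5.40 to 5.57 in controls, with 7 of 8 called in the acute group. Monocyte and macrophage markers, the mean of 7 genes, were at 7.09, 9.05, 8.03 and 8.47, against 6.64 to 7.00, with 6 of 7 called. B3 was highest and B2 lowest for both lists, as for Ccl2, Ccl7, Ccl3 and Ccl5. The same held for markers of T and NK cells (6.31 and 5.66), of follicle-associated epithelium and M cells (7.00 and 6.13) and of fibroblasts (9.62 and 8.78). It did not hold for B cells and eosinophils, where B4 was highest at 6.41 and 5.74, or for plasma cells, where C3 was at 7.06 and B3 at 7.05. Smooth muscle markers fell, all 4 called, with a mean of 9.74 to 10.91 in acute mice against 11.68 to 12.09 in controls. The part of cell composition in the chemokine values was not tested.

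Against 1 cycle alone, which separates acute mice from mice that had the same first exposure and then 2 weeks of water, Ccl2 was 3.52-fold higher (log2 1.82, SE 0.43, adjusted p = 0.0118), Ccl7 2.56-fold (log2 1.36, SE 0.39, adjusted p = 0.0364) and Ccl3 3.12-fold (log2 1.64, SE 0.45, adjusted p = 0.0309). This is 3 of 10 members, where 0.197% of all probe sets were called higher. No member was called lower, against 0.498%. Ccl11 passed the adjusted p alone (log2 0.80, adjusted p = 0.0319), as did 5.74% of all probe sets in either direction, so 4 members passed without the fold limit. Ccl5 was at the fold limit but did not pass (log2 1.00, 95% interval 0.31 to 1.69, adjusted p = 0.0772), though it passed with the label letter as a random block (adjusted p = 0.0456) and with dim probe sets left out (adjusted p = 0.0475). The count was 1 without B3, J1, K1, K2 or K3, and 0 when only the acute and 1 cycle mice were fitted. Within the low set of arrays, with B2 and B3 only, it was also 0, at log2 differences of 2.06, 1.82 and 2.03 for Ccl2, Ccl7 and Ccl3 (adjusted p = 0.261, 0.259 and 0.283). With the set as a covariate Ccl3 was not called (1.56, SE 0.51, adjusted p = 0.111), and Ccl11 was (1.01, SE 0.24, adjusted p = 0.0206).

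From 1 to 3 cycles no member was called, where 0.0732% of all probe sets were called higher and 0.0479% lower, and the largest difference was that of Ccl3, at 0.35 (95% interval -0.52 to 1.23, adjusted p = 0.703). Ccl8 differed by 0.05 (95% interval -0.47 to 0.57). From 2 cycles to recovery no member was called either, where the shares were 0.152% and 0.00845%. Ccl3 had the largest difference there, at -0.84 (95% interval -1.72 to 0.03, adjusted p = 0.597), followed by Ccl20 at -0.44 and Ccl28 at -0.35. For Ccl8 the difference was 0.01 with a 95% interval from -0.51 to 0.53, so a fall back to the control level, which is 1.42 below the 2 cycles mean, lies outside it. At an unadjusted p under 0.05 no member passed in either comparison. At a mean level, acute came first for Ccl2, Ccl7, Ccl8, Ccl11, Ccl3, Ccl4 and Ccl5, and control last for Ccl2, Ccl7, Ccl8, Ccl3, Ccl5 and Ccl20. Neighbours in the order overlapped everywhere except at the last step to control, which was clear for Ccl2, Ccl8, Ccl3 and Ccl5.

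Of the members, 7 lie on chromosome 11 in a run of CC chemokine genes that RefSeq orders Ccl2, Ccl7, Ccl11, Ccl12, Ccl8 and Ccl1, then, in a second run, Ccl5, Ccl9, Ccl6, Ccl3 and Ccl4. In acute colitis some neighbours in these runs were called together, as Ccl2 and Ccl7 and as Ccl5 and Ccl9, and others had unlike values. Ccl12, which lies between Ccl11 and Ccl8, differed by 0.15 (adjusted p = 0.388) and Ccl1, beside Ccl8, by 0.16 (adjusted p = 0.278). Their probe sets were dim, with means of 4.60 and 5.27 over all arrays. As for Ccl4, a probe set that responds little and an unchanged gene cannot be told apart. In the second run Ccl6, a chemokine of macrophages, fell by 1.12 on the log2 scale (SE 0.19, adjusted p = 6.98e-05), while Ccl9, the gene beside it, rose by 1.04 (SE 0.18, adjusted p = 8.57e-05). The call of Ccl6 was lost without B4 and that of Ccl9 without A1, A5, B2 or B3, both at the fold limit. With the array set as a covariate Ccl6 was at -0.99, also just under it, and within the low set at -0.77 (adjusted p = 0.0368).

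**Figure D4:**
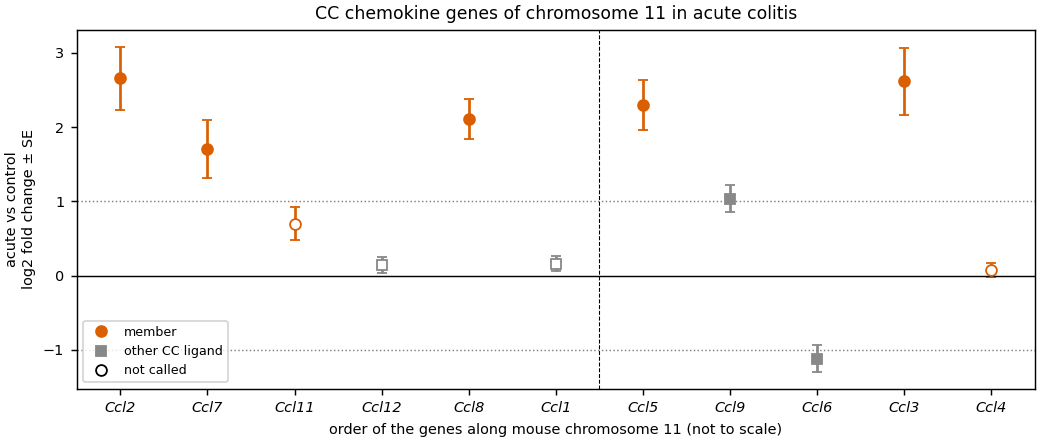
Log2 fold change of acute against control with its SE for the CC chemokine genes of chromosome 11, in their order along the chromosome and not to scale; circles are members, squares other CC ligands, filled symbols were called, and the dashed line parts the 2 runs. Values go from 2.66 for Ccl2 down to -1.12 for Ccl6, and Ccl3 and Ccl4 stand side by side at 2.62 and 0.08.

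Of 9 other CC ligands measured, 1 rose and 1 fell in acute mice, where 1.38% and 1.4% of all probe sets were called higher and lower. After 2 cycles, 3 cycles and in recovery 1 each rose, where 0.907%, 1.02% and 1.08% of all probe sets did. The gene that rose in these 3 groups was Ccl19, which gathers Ccr7-bearing T cells and dendritic cells in lymphoid tissue, with log2 differences of 1.19 (adjusted p = 0.00862), 1.28 (adjusted p = 0.00247) and 1.03 (adjusted p = 0.0151). With the array set as a covariate these differences were almost the same, at 1.19, 1.28 and 1.03, but with larger SE of 0.33, 0.41 and 0.41 they were not called (adjusted p = 0.0683, 0.14 and 0.309), nor was that after 2 cycles within the low set (1.22, adjusted p = 0.0627). Its recovery call was lost without A5, M1, M3 or N2, and M5 alone gave 0.59. Ccl19 had 5 probe sets with a single symbol, and the values above are from the brightest, not called after 1 cycle. Among the others, rises of 1.02, 1.02 and 1.05 were called after 1 cycle, and that of 0.88 in the dimmest was not. The dimmest was under the fold limit in recovery as well, at 0.91. All of them were called after 2 and 3 cycles. Ccl22, a dendritic cell product that binds Ccr4, passed the adjusted p but not the fold limit in all 4 of the groups after a pause from DSS, at 0.60 to 0.85.

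Receptors of the members were read from 9 genes. Ccr2, the receptor of Ccl2 and Ccl7, was at 5.37, 5.10, 4.97, 4.92 and 5.34 in controls and at 5.61, 8.19, 6.94 and 7.21 in acute mice, a log2 rise of 1.85 (SE 0.32, adjusted p = 0.000102). It rose after 1 cycle by 1.11 (adjusted p = 0.0224) and after 2 cycles by 1.03 (adjusted p = 0.0415). The call after 1 cycle was lost without A5, L1 or K1, and that after 2 cycles without any 1 of 9 of the 10 mice. The call of Ccr2 after 2 cycles was also lost with the array set as a covariate (0.92, adjusted p = 0.258) and within the low set (0.92, adjusted p = 0.455), as was that after 1 cycle within the low set (1.11, adjusted p = 0.0876). Ccr1, a receptor of Ccl3 and Ccl5, rose in acute mice by 1.20 (SE 0.27, adjusted p = 0.00156), with 0.72 without B3 and no call when only the acute and control mice were fitted (1.20, SE 0.37, adjusted p = 0.0575). Ccr6, the Ccl20 receptor, was at 6.43, 5.97, 6.65, 6.48 and 6.04 after 1 cycle against 4.98, 5.10, 5.34, 4.99 and 5.64 in controls, and rose by 1.10 (adjusted p = 0.00918). It rose by 1.09 after 2 cycles (adjusted p = 0.0113), though not past the fold limit without D4, and differed by 0.32 in acute mice (adjusted p = 0.45). After 2 cycles Ccr6 was at 1.11 with the set as a covariate (SE 0.32, adjusted p = 0.0733) and at 1.13 within the low set (adjusted p = 0.0679), neither called.

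Ccr9, the Ccl25 receptor, passed the adjusted p without reaching 2-fold after 1, 2 and 3 cycles and in recovery, at 0.78, 0.79, 0.76 and 0.58, while Ccl25 did not. Ccr10, the Ccl28 receptor, did so after 3 cycles at 0.39 (adjusted p = 0.0184). Ccr3 and Ccr8, the receptors of Ccl11 and mouse Ccl8, passed in no comparison with control. Over the 29 mice Pearson's r between ligand and receptor was 0.87 for Ccl2 and Ccr2, 0.82 for Ccl3 and Ccr1, 0.86 for Ccl20 and Ccr6, -0.64 for Ccl25 and Ccr9 and 0.16 for Ccl28 and Ccr10. With group means removed these were 0.80, 0.78, 0.83, -0.60 and 0.05. Without B3 they were 0.82, 0.59, 0.87, -0.65 and 0.07, so that of Ccl3 and Ccr1 rested in part on this mouse. For Ccl5 and Ccr1 r was 0.82 over the 29 mice and 0.71 without B3, and for Ccl7 and Ccr2 0.75 and 0.60. It was 0.46 and 0.41 for Ccl8 and Ccr8, and 0.19 and 0.34 for Ccl11 and Ccr3. Both values of a point share an array and a piece of tissue, so r is given as a description only.

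**Figure D5:**
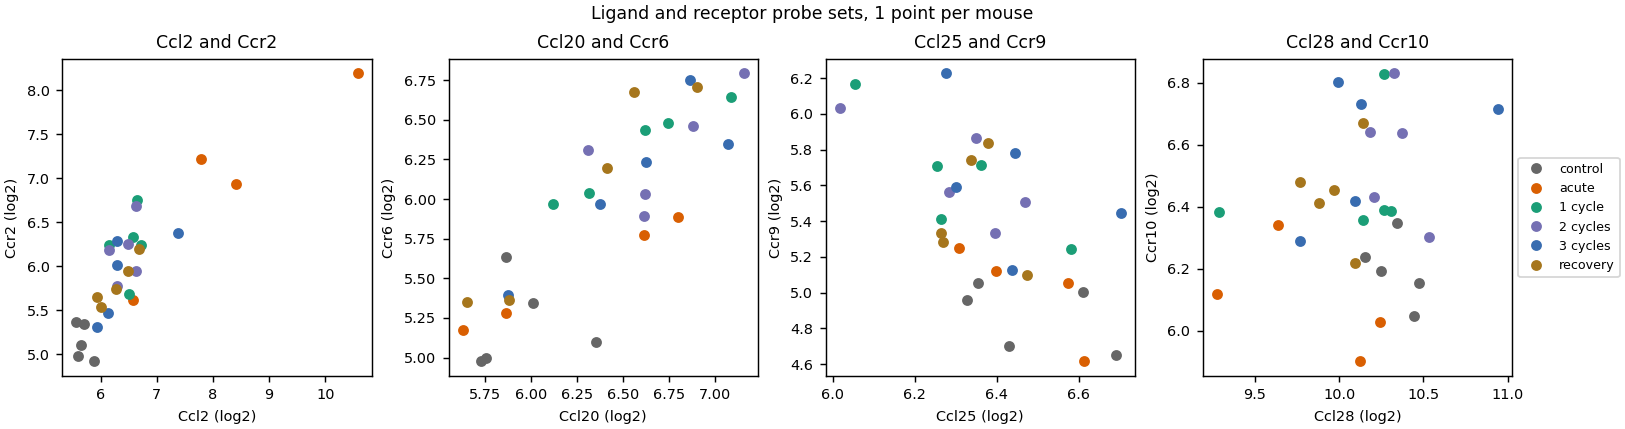
Log2 expression of 4 CC chemokine genes (x axes) and of a receptor of each (y axes), 1 point per mouse and coloured by group. High values of Ccr2 go with high values of Ccl2, and those of Ccr6 with those of Ccl20 (r of 0.87 and 0.86), Ccl25 and Ccr9 run opposite within a narrow range of Ccl25 (r of -0.64), and Ccl28 and Ccr10 show little relation (r of 0.16).

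The genes most like each member were taken as the 3 with the highest r over the 29 mice. For Ccl2 they were Cemip, Gbp5 and Tarm1, each with an r of 0.97, and for Ccl7 they were Ly6a2, Ccl2 and Il11, each 0.95. Ccl8 went with Cxcl9 (0.95), Gm12250 (0.94) and Zbp1 (0.93), Ccl3 with Fcgr4 (0.91), Klra2 (0.91) and Gpr141 (0.89), and Ccl5 with Fcgr4 (0.96), Ccr2 (0.96) and Klra2 (0.95). The lists of Ccl3 and Ccl5 shared Fcgr4, an Fc receptor of myeloid cells, and Klra2. Ccl20 went with Btla (0.89), Fcrl1 (0.88) and Siglecg (0.87), all known from B cells, and Ccl28 with Fads2 (0.85), Mecr (0.84) and Cdh1 (0.82), the last being E-cadherin of epithelium. For Ccl11 the r of Il6 (0.87), Orm2 (0.86) and Slc7a2 (0.86) rested on B3, since without it they were 0.54, 0.49 and 0.52. Ccl4 and Ccl25 had no gene above 0.68 and 0.75. Among the members, Ccl2 and Ccl5 had an r of 0.89 and Ccl3 and Ccl5 likewise 0.89, while Ccl8 and Ccl2 had 0.69.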

How the data were processed

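RNA from 1 piece of colon per mouse was hybridised to 29 arrays. According to the methods and the labels, the authors ran robust multichip average (RMA) on the image files under R 2.12.2, which gives background-corrected, normalised log2 values, and those deposited log2 values were used here unchanged. Of 35511 probe sets, 21789 had a single gene symbol, 1621 several and 12101 none here, and 21698 of the single symbols matched RefSeq. Groups came from the labels. limma 3.58.1 in R 4.3.3 was fitted to all probe sets with 6 group means and a spread shared by all groups. It was first checked on simulated data with the same arrays, in which acute against control recovered 96% of probe sets changed 2.5-fold. The simulation gave all groups the same spread and had no array sets. In the real data the Ccl2 SD was 1.67 in acute mice and 0.12 in controls. The 96% therefore checks the procedure and is not the power of this comparison. Differences are on the log2 scale, and the number of mice limits their precision.

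The text names all 10 members, the measured CC ligands and receptors, cell type markers beside members, and the 3 genes most like each member. The members, gene lists and 2 sets of arrays were chosen with earlier results of these data known. Alternatives were: no fold limit, the compared groups alone, each array left out, the label letter as a random block (consensus correlation -0.068), array weights, the trended robust prior, median centring, renewed quantile normalization, single-symbol probe sets only, leaving out probe sets under 6 in every group mean (19692 left, 9 of the members among them), the array set as a covariate, fits within 1 set, the 5 arrays with a mean squamous marker level above 7 left out (added after seeing the data), group medians, and the other Ccl25 probe set.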

Additional observations from a re-analysis of the deposited data

Results flagged for a closer look

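Of 60 member and group combinations tested by Dixon's criterion for a value apart from its own group, 3 passed, and chance alone flags about 1 in 20. Ccl2 was at 7.39 in 3 cycles mouse G3, above the other 4 mice of that group, which lay between 5.93 and 6.29. The neutrophil markers of the same mouse averaged 7.02, against 5.60 to 5.94 in the other 4, its squamous epithelium markers 8.21, against 5.39 to 5.48, and its colon epithelium markers 11.39, the lowest of the group. Ccl8 was at 6.72 in 2 cycles mouse E2, which was also the highest of its group for Ccl3 and Ccl5. Ccl28 was at 9.28 in 1 cycle mouse K3, below the other 4, which lay between 10.14 and 10.31.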

How the results depend on the processing

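No paired analysis was possible because each mouse belongs to 1 group and the labels share no replicate number between groups. With 1 array left out at a time, the number of members called ranged from 4 to 5 for acute, 2 to 2 for 1 cycle, 1 to 3 for 2 cycles, 1 to 3 for 3 cycles and 1 to 2 for recovery against control, from 1 to 4 for acute against the chronic mean, from 1 to 4 for acute against 1 cycle, and was 0 in the other comparisons. The count was 1 for 2 cycles without A5 or E2 and for 3 cycles without G3, and 2 for recovery without N3. Without a fold limit 2 members were called in recovery. With the compared groups alone 0 were called for acute against 1 cycle. With the array set as a covariate the counts were 1 after 2 cycles, 0 after 3 cycles and 0 in recovery, and within 1 set they were 0 after 2 cycles and 0 for acute against 1 cycle. With the squamous marker arrays left out, chosen after seeing the data, they were 1 after 3 cycles and 0 in recovery, where M5 alone remained. Other settings left each count within 1.5 times. Why the array set changes these counts was not tested; control and the 3 cycles and recovery groups lie wholly in different sets.

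Directions turned for values that were not called, of which those with the covariate lay farthest from 0. With array weights these were Ccl25 acute 0.044, Ccl11 1 cycle 0.011, Ccl28 2 cycles 0.016, then from 1 to 3 cycles Ccl8 -0.034, Ccl11 -0.027 and Ccl20 0.055, and Ccl4 from 2 cycles to recovery 0.0055. Median centring gave -0.00046 for Ccl8 from 2 cycles to recovery. The covariate gave 0.0015 for Ccl25 acute, 0.082 and 0.40 for Ccl11 after 2 and 3 cycles, from 1 to 3 cycles 0.058 for Ccl2, 0.60 for Ccl7, -0.18 for Ccl8 and 0.13 for Ccl20, and from 2 cycles to recovery 0.087 for Ccl7 and -0.082 for Ccl8. Within 1 set Ccl11 was 0.0037 and Ccl28 0.038 after 2 cycles, and Ccl8 was -0.094 from 2 cycles to recovery. Without the squamous marker arrays Ccl7, Ccl11 and Ccl20 were at -0.099, -0.076 and -0.29 in recovery, and from 1 to 3 cycles Ccl8 was at -0.081 and Ccl11 at -0.0094. The other Ccl25 probe set gave -0.023 from 1 to 3 cycles.

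With an array left out, log2 differences from control ran from -0.0043 to 0.13 for Ccl4 and from -0.056 to 0.046 for Ccl25 in acute mice, from -0.19 to 0.0076 for Ccl11 and -0.10 to 0.0023 for Ccl4 after 1 cycle, from -0.079 to 0.027 for Ccl4 and -0.060 to 0.028 for Ccl28 after 2 cycles, from -0.11 to 0.086 for Ccl11 and -0.12 to 0.0020 for Ccl25 after 3 cycles, and from -0.037 to 0.16 for Ccl11 in recovery. Against the chronic mean Ccl4 ran from -0.0074 to 0.12. From 1 to 3 cycles the ranges were -0.36 to 0.0011 for Ccl2, -0.14 to 0.059 for Ccl7, -0.081 to 0.24 for Ccl8, -0.0094 to 0.16 for Ccl11, -0.31 to 0.043 for Ccl5, -0.14 to 0.16 for Ccl20 and -0.060 to 0.24 for Ccl28. From 2 cycles to recovery they were -0.14 to 0.16 for Ccl8, -0.074 to 0.033 for Ccl4, -0.29 to 0.012 for Ccl5 and -0.031 to 0.082 for Ccl25. By medians in place of means, 7 of the 10 genes had the same highest group and 3 the same whole order.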
